A study of Macaca fascicularis with 80 samples.

Results

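A set of 29 genes in cynomolgus macaque whole blood was lower than before treatment 3 days after the first and 3 days after the third dose of IL-15/IL-15Ra, was near its starting level 1 day after the first dose, and had returned to it by day 21. The 29 were chosen from the measured values, of 9939 genes with a mean of at least 5 CPM (counts per gene scaled to a common library total) over 80 libraries and of 38550 genes listed. CPM values were put on a log2 scale after adding 1, the median of the kept genes was subtracted in each library, and the mean of 8 animals was taken for each day. Genes were members if the means of day 3 and of day 10 were both at least 0.3 below day 0, while day 1 lay within 0.2 and day 21 within 0.15 of day 0. Up to 150 genes could have been taken, a limit that was not reached.

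Each of 8 animals, 4 females and 4 males, was bled into PAXgene tubes on days 0, 1, 3, 4, 7, 8, 10, 14, 17 and 21, and 1 library per animal and day was sequenced. All animals received 3 rising doses of IL-15/IL-15Ra, namely 5 µg/kg (day 0), 10 µg/kg (day 3) and 15 µg/kg (day 7). Blood of days 1 and 3 carries the dose of 5 µg/kg in the labels, blood of days 4 and 7 that of 10 µg/kg, and blood of days 8, 10, 14, 17 and 21 that of 15 µg/kg. The day 0 libraries, labelled as controls with a dose of 0, are the only baseline. Samples of days 3 and 7 were read as drawn before that day's dose, which the labels do not state, and neither strain nor age of the animals is given in the sources used here. Dose, order of dosing and time rise together and cannot be told apart.

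Interleukin 15 is a cytokine that supports the survival and division of natural killer cells and CD8 T cells. It is normally presented by its receptor alpha chain to cells that carry the beta and common gamma chains, and the complex with the alpha chain, IL-15/IL-15Ra, acts through the same receptor and the JAK-STAT pathway. Whole blood mixes neutrophils, lymphocytes, monocytes, platelets and red cells, whose proportions can shift within days. In such a bulk sample, fewer cells of a type and less RNA per cell cannot be told apart. The files give identifiers without gene names, and 0 matched the available gene table, so the products of the 29 genes and the cell types that express them are not named here, the labelled tissue could not be checked against markers, and no sequence is shown. As names are lacking, 4 of the 29 identifiers are printed.

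Libraries held 17.09 to 80.22 M counts (median 24.29 M), and 8 of 80 exceeded 40 M, 1 on day 7, 3 on day 8 and 4 on day 10. Column names show a shared run and library tag for 71 libraries, another run tag for 3 libraries of day 10 and 5 of day 14, and another library tag for 1 library of day 7. The 29 genes were mostly of low abundance. Their mean level ran from 5.14 to 223.5 CPM with a median of 14.6 CPM, and 20 of 29 were below the 35.9 CPM median of the kept genes. Their spread between animals on day 0, as the median SD, was 0.36 on the log2 scale, against 0.25 for all kept genes. All 29 passed the low-count filter of the tests below.

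Being low on days 3 and 10 was common, and returning to baseline was not. Of the kept genes, 930 were at least 0.3 below day 0 on both days, of which 379 had already moved by day 1 and a further 522 were away from day 0 on day 21, which left the 29. The mirrored rule, with the signs of days 3 and 10 turned round, found 66 genes. Members just inside the limit had a larger value of days 3 and 10 of -0.304, -0.305 and -0.306, and the nearest genes outside it had -0.298, -0.298 and -0.296. A total of 5 members stayed in the set whichever animal was left out, and 20 stayed in at least 5 of the 8 such omissions.

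The low phase was not confined to the days 3 days after a dose. As a description of the days that chose them, the median of the 29 genes relative to day 0 was -0.11 on day 1 and -0.40 on day 3. It was -0.46 on day 10 and -0.07 on day 21. Lower on day 10 than on day 3 were 24 of 29 genes, and the share of kept genes was not counted. Values of -0.3 or lower were found in 0 of the 29 genes on day 1 (5.5% of kept genes), in 29 on day 3 (12.1%), in 29 on day 10 (16.3%) and in 0 on day 21 (19.2%), counts that the rule fixes. Lower than day 0 in 8 of 8 animals on day 1 were 0 genes (3.31% of kept genes). Days 4, 7, 8, 14 and 17 entered the choice only through the minimum mean CPM. Their differences from day 0 share the day 0 libraries that chose the members, so they too are a description. For days 4, 7 and 8 the medians were -0.36, -0.29 and -0.39. They were -0.54 on day 14 and -0.09 on day 17. Medians over all kept genes lay between -0.02 and 0.00, where the subtraction of the library median holds them. After 1 was added and the library median subtracted, the day 14 median corresponds to 68.99% of the day 0 value. Without the subtraction, the median change on day 14 was -0.78. The lowest mean fell on day 14 in 13 of the 29 genes, against 3 on day 3 and 3 on day 10. The share of kept genes with their lowest mean on day 14 was not counted. Day 14 also had the most kept genes at least 0.3 below day 0 (21.1%). A name that limits the low values to the third day after dosing goes against these medians of days 4, 7, 8 and 14, so the set is called by its rule, as genes lower on days 3 and 10 and near day 0 on days 1 and 21.

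**Figure D1:**
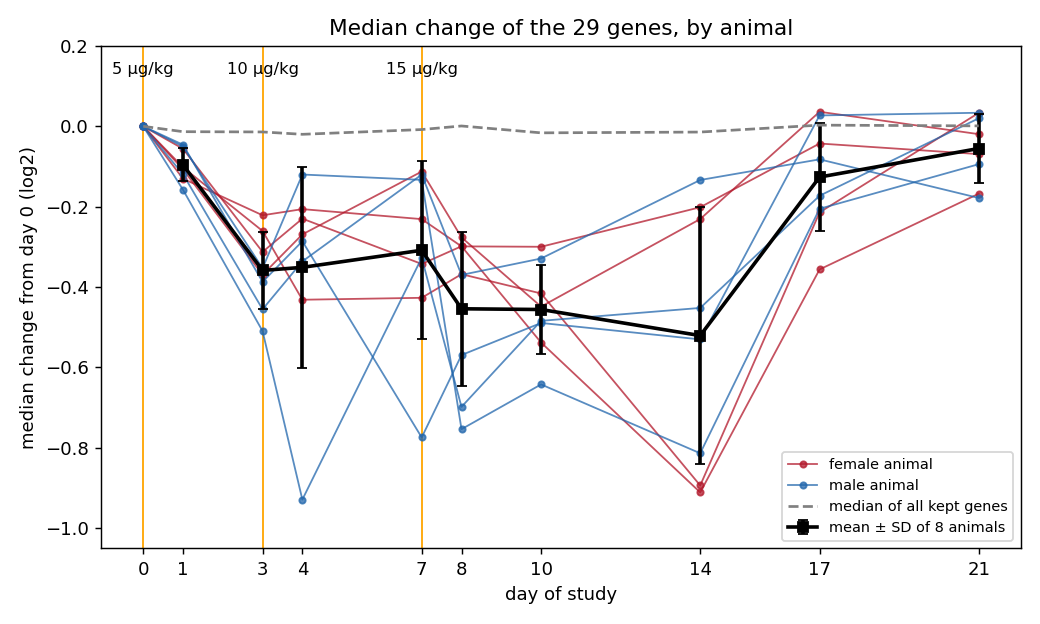
Median log2 change of the 29 genes from the animal's own day 0 (vertical axis) by day of study (horizontal axis), with 1 thin line per animal (red, female; blue, male), the mean ± SD of the 8 animals in black, and the median of all kept genes dashed; orange lines mark the 3 doses. The mean lay at -0.36 on day 3, -0.46 on day 10 and -0.52 on day 14 and was at -0.13 on day 17, while animals spread most widely on day 14, from -0.91 to -0.13.

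On the days outside the rule, counts of genes at least 0.3 below day 0 showed the same course. Counts of genes lower in 8 of 8 animals did not, as they were smaller on day 14 than on days 4, 7 and 8. Relative to day 0, 18 of the 29 genes were at least 0.3 lower on day 4, where 12.2% of the kept genes were, and 14 on day 7 (13.9% of kept genes). On day 8 the count was 20 (17.4% of kept genes) and on day 14 it was 21 (21.1% of kept genes). On day 17 it was 0 of 29, while 17.9% of the kept genes were at least 0.3 lower than day 0. These differences share the day 0 libraries that chose the members, so they are given without a test. Lower than day 0 in 8 of 8 animals were 8 genes on day 4 (5.17% of kept genes), 8 on day 7 (7.82%) and 7 on day 8 (7.16%). The counts were 5 on day 14 (8.16%) and 1 on day 17 (10.9%). For the days of the rule, the counts were 15 on day 3 (6.36% of kept genes) and 11 on day 10 (10.8%). On all of days 4, 7, 8 and 14, 25 of 29 genes had means below day 0, for which the share of kept genes was not counted. A total of 6 were at least 0.3 lower on each of those days, as were 1.98% of the kept genes.

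**Figure D2:**
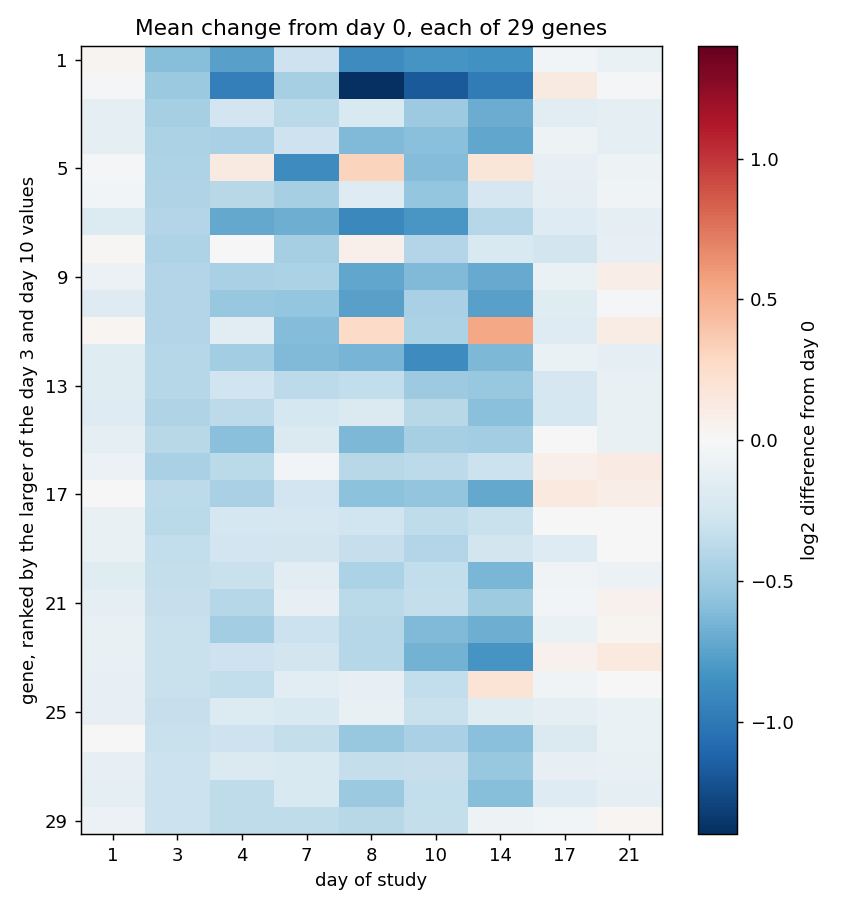
Mean log2 difference from day 0 over 8 animals (colour, blue lower and red higher) for each of the 29 genes (rows, ranked by the larger of the day 3 and day 10 values) on 9 later days (columns). Most rows stay blue from day 3 to day 14, and 3 rows, at ranks 5, 8 and 11, are pale or red on days 4 and 8 and blue on days 3, 7 and 10.

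Animals differed in how low the set was and when. The median of the 29 genes in single animals was below the animal's day 0 in 8 of 8 animals on days 1, 3, 4, 7, 8, 10 and 14, and in 6 of 8 on day 17 and 5 of 8 on day 21. Its mean over animals (± SD, n = 8) was -0.36 ± 0.10 on day 3 and -0.35 ± 0.25 on day 4. It was -0.31 ± 0.22 on day 7 and -0.45 ± 0.19 on day 8. It was -0.46 ± 0.11 on day 10, -0.52 ± 0.32 on day 14 and -0.13 ± 0.14 on day 17. The lowest animal was male 39102 on day 4, with -0.93, and male 39103 on day 7, with -0.77. Their libraries also had the lowest subtracted library median of the day, at 4.582 on day 4 and 4.935 on day 7 (log2 scale). On day 14 the median was -0.91 in female 39097, -0.89 in female 39090 and -0.81 in male 39104, and it lay between -0.53 and -0.13 in the other 5 animals. The subtracted library medians of these 3 animals were 4.889, 4.582 and 4.655 on day 14, against 4.728 to 5.269 in the other 5. With 1 library per animal and day, differences between animals and between libraries cannot be told apart. Without the day 4 library of animal 39102, the median of the 29 genes on day 4 was -0.30.

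Depth, run and the make-up of the libraries moved with some of these values. On day 8 the 3 libraries over 40 M counts, all from males, had medians of -0.75 to -0.57. The 5 others, from the 4 females and male 39100 (-0.37), had -0.37 to -0.28, so that the groups did not overlap. The set averaged -0.31 in females and -0.60 in males on that day. As only 1 male had a library under 40 M, depth and sex cannot be told apart on day 8. On day 10 the order was the other way, with -0.54 to -0.30 in the 4 libraries over 40 M and -0.64 to -0.45 in the 4 others. All 4 libraries over 40 M were of the shared run, and 3 of the 4 others were of the other run. Depth and run thus cannot be told apart on day 10. On day 10, the 3 animals sequenced in the other run, all male, averaged -0.54, and the 5 in the shared run, of which 4 were female, averaged -0.41. On day 14, the 5 animals in the other run averaged -0.47 and the 3 in the shared run, all male, averaged -0.60. The day 10 values were used by the rule and are a description. Since the split by run largely followed sex on days 10 and 14, run and sex cannot be told apart there. The library medians that were subtracted were low on days 8 and 14, at 4.92 and 4.91 (median of 8 libraries, log2 scale), against 5.14 on day 0, and the 10 most abundant genes took 8.93% and 9.10% of counts on those days, against 6.71% on day 0. Without the subtraction, the median change of the 29 genes was -0.67 on day 8 and -0.78 on day 14, and it was 0.01 on day 17 and 0.02 on day 21. The part of depth, run and library make-up in the result was not tested.

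Comparisons among days 4, 7, 8, 14 and 17, whose libraries entered the choice of members only through the minimum mean CPM over all 80 libraries, were tested with edgeR's quasi-likelihood test, with animal as a block, over 16054 genes. A gene counts as changed where its p, adjusted by Benjamini-Hochberg over all genes tested, was under 0.05.

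Of these, day 17 relative to day 14, 7 to 10 days after the last dose, had the most members called. The rule required members to be low on day 10 and near day 0 on day 21. A rise somewhere between days 10 and 21 was thus fixed in advance, and only its timing was open. Other genes did not have to recover, so the shares of all genes tested are given as a description. The counts are no independent test of recovery. On day 17 relative to day 14, 11 of the 29 genes rose, where 9.23% of all genes tested rose, and 1 fell, where 10.8% fell. The median log2 fold change of the 29 genes was 0.43, against 0.06 for all genes tested. The 11 rose by 0.37 to 1.12 on the log2 scale (median 0.62, adjusted p 0.0182 to 0.0482 by edgeR). Their median relative to day 0 was -0.645 on day 14 and -0.09 on day 17, so they ended near their starting level. In single animals, the median step of the 29 genes from day 14 to day 17 was 0.38 ± 0.26 (SD, n = 8) and was upward in 8 of 8 animals, from 0.05 to 0.85. Another 6 genes had an unadjusted p under 0.05, which makes 18 of 29, where 37.2% of all genes tested had one. DESeq2 called 15 genes up and 1 down (14.2% and 16.4% of genes tested). The calls rested on single animals, among all genes tested as well as in the set. Without animal 39102 or without animal 39103 no gene of the 16054 was called. Without 39090 the set had 1 rise and 1 fall (0.249% and 0.467% of genes tested). Without 39097 it had 3 rises and 1 fall (2.34% and 3.16% of genes tested). In these 4 fits, 15 to 18 of the 29 genes had an unadjusted p under 0.05, as did 30.3% to 32.8% of genes tested. Among the 3 males with both libraries in the shared run, 1 gene rose (1.44% of genes tested), with a median log2 fold change of the 29 genes of 0.57 and 17 of 29 at an unadjusted p under 0.05 (30% of genes tested). The median log2 fold change of the 29 genes stayed between 0.36 and 0.47 with any 1 animal left out. With library totals in place of trimmed-mean factors, 21 genes rose and 1 fell (32.7% and 4.36% of genes tested), while the median of all genes tested moved to 0.43.

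ENSMFAG00000038603, the gene with the lowest larger value of days 3 and 10, had 11.9, 20.4 and 38.6 CPM on day 0 (lowest, median and highest of 8 animals). After the first dose its median was 23.99 CPM (day 1) and 11.8 CPM (day 3), and after the second it was 10.8 CPM (day 4) and 18.2 CPM (day 7). After the third dose it was 11.8 CPM (day 8), 10.9 CPM (day 10), 9.38 CPM (day 14), 22.6 CPM (day 17) and 24.4 CPM (day 21). The levels were thus low on each of days 3, 4, 8, 10 and 14 and closer to day 0 on day 7. On day 17 it had 12.5 to 35.8 CPM and on day 14 it had 2.08 to 38.3 CPM, so the ranges overlapped, although 7 of 8 animals were higher on day 17. That difference was 0.85 on the log2 scale (SE 0.34) and missed the threshold (edgeR adjusted p = 0.096).

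ENSMFAG00000003955 ranked second and varied more. It had 6.67, 9.80 and 22.2 CPM on day 0 (lowest, median and highest). After the first dose its median was 9.73 CPM (day 1) and 6.73 CPM (day 3), and after the second it was 4.26 CPM (day 4) and 6.60 CPM (day 7). After the third dose it was 4.00 CPM (day 8), 3.02 CPM (day 10), 3.01 CPM (day 14), 12.5 CPM (day 17) and 10.0 CPM (day 21). On day 8 all 8 libraries lay between 0.205 and 4.69 CPM, below every library of day 0. This is a description, since the day 0 libraries chose the gene and library medians were lower on day 8 (4.92) than on day 0 (5.14). The share of kept genes with such a separation was not counted. After subtraction of the library median, the gene was lower than day 0 in 8 of 8 animals, as were 7.16% of the kept genes. A single library of day 4, with 0.0782 CPM, held 2 counts of this gene. The gene was 1.31 lower on the log2 scale on day 8 than on day 7 (log2 fold change -1.31, SE 0.54, edgeR adjusted p = 0.11), in 7 of 8 animals after subtraction of the library median, and 1.33 higher on day 17 than on day 14 (SE 0.45, edgeR adjusted p = 0.055) in 7 of 8 animals, and neither difference passed the threshold.

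**Figure D3:**
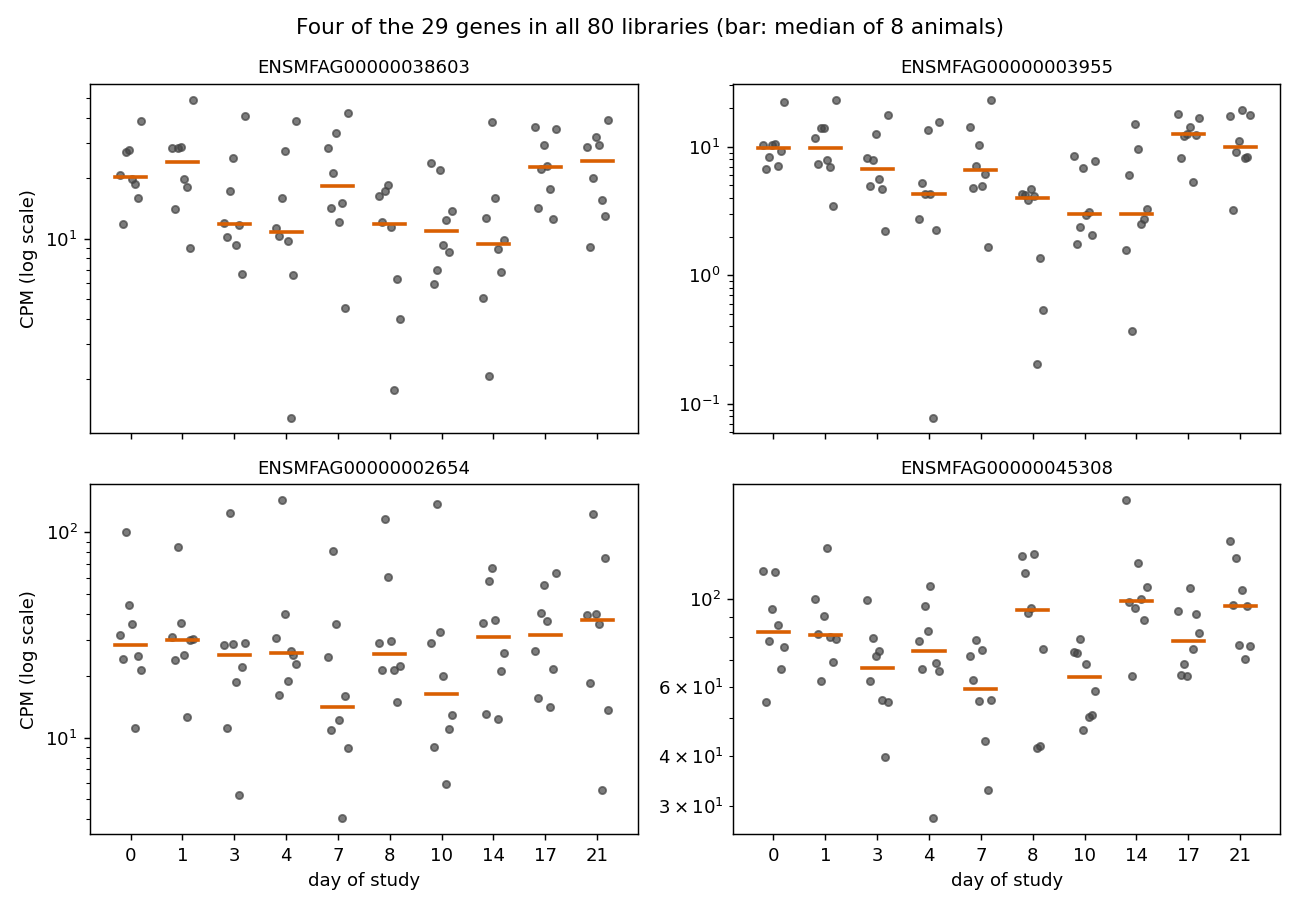
CPM (vertical axes, log scale) of 4 of the 29 genes in all 80 libraries by day of study (horizontal axis); points are single animals in the same order on each day, and bars are medians of 8 animals. ENSMFAG00000038603 (upper left) had low medians of 11.8, 10.8, 11.8, 10.9 and 9.38 CPM on days 3, 4, 8, 10 and 14, and ENSMFAG00000003955 (upper right) lay between 3.01 and 6.73 CPM on every day from 3 to 14, whereas ENSMFAG00000045308 (lower right) was low on days 3, 7 and 10 and had 93.6 CPM on day 8 and 99.1 CPM on day 14.

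On day 8 relative to day 7, 1 day after the third dose, 3 of the 29 genes rose (6% of genes tested rose) and 0 fell (7.77% fell), with 9 at an unadjusted p under 0.05 (36.7% of genes tested). These shares do not set the members apart from other genes. With library totals as scaling, 2 rose and 7 fell (3.75% and 25.7% of genes tested), and the median log2 fold change of all genes was -0.43 in place of -0.06. By DESeq2 3 rose and 2 fell (15.7% and 12.6% of genes tested), and when animals with a library over 40 M counts were left out, 5 rose and 2 fell in the remaining 4 animals (11.4% and 6.89% of genes tested). The count of 3 was 1 without animal 39095, 39098 or 39102, where 0.081% to 0.399% of genes tested rose. It was also 1 within the shared run and library tag, which leaves out animal 39095. All 3 genes were higher on day 8 than on day 7 in 8 of 8 animals, as were 12.9% of the kept genes. All 3 were lower on day 7 than on day 4 in 8 of 8 animals, as were 3.57% of the kept genes. They were also the only 3 of the 29 that stood above or within 0.15 of day 0 on both day 4 and day 8. Relative to day 0 their means were low on days 3, 7 and 10 and near day 0 on days 1 and 4, and on day 8 they were 0.32, 0.07 and 0.27. Means that were higher on day 4 than on day 3, lower on day 7 than on day 4, higher on day 8 than on day 7 and lower on day 10 than on day 8 were found in 7 of the 29 genes and in 3581 of the 9939 kept genes (36%). That order of days was thus common in these data, and the 3 genes were picked out after their values were seen.

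ENSMFAG00000045308 had 55, 82.4 and 118.1 CPM on day 0 (lowest, median and highest). After the first dose its median was 81.02 CPM (day 1) and 66.8 CPM (day 3), and after the second it was 73.7 CPM (day 4) and 59.1 CPM (day 7). After the third dose it was 93.6 CPM (day 8), 63.6 CPM (day 10), 99.1 CPM (day 14), 78.5 CPM (day 17) and 96.3 CPM (day 21). It fell by 0.48 on the log2 scale on day 7 relative to day 4 (SE 0.10, edgeR adjusted p = 0.029), the only member called in that comparison. It rose by 0.91 on day 8 relative to day 7 (SE 0.13, edgeR adjusted p = 0.011), with 42.04 to 130 CPM on day 8 and 32.8 to 78.9 CPM on day 7, so the ranges overlapped while every animal moved up. It was the single member that fell on day 17 relative to day 14, by 0.74 (SE 0.14, edgeR adjusted p = 0.018), in 8 of 8 animals, a call that was lost without animal 39102 or 39103 (adjusted p 0.0136 to 0.0583 over the 8 omissions). On day 14 it stood 0.54 above day 0, opposite to most of the set. The call of day 8 was kept with each animal left out (adjusted p 0.00514 to 0.0446). The call of day 7 was lost without any 1 of animals 39090, 39097, 39098, 39100 and 39104, and with library totals (adjusted p = 0.358).

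Of the 3 genes, ENSMFAG00000002654 rose the most on day 8 relative to day 7, by 1.26 on the log2 scale (SE 0.31, edgeR adjusted p = 0.035), a call lost when animal 39090, 39095, 39098, 39100 or 39102 was left out (adjusted p 0.0218 to 0.0757 over the 8 omissions). Its median was 28.4 CPM on day 0, 25.2 CPM on day 3 and 25.9 CPM on day 4. It was 14.1 CPM on day 7 and 25.6 CPM on day 8, and 16.4 CPM on day 10 and 31.1 CPM on day 14. Female 39097 stood far above the other animals on most days, with 100.3 CPM on day 0 and 137.4 CPM on day 10, where the next animals had 44.5 and 32.6 CPM. The gene was 1.03 lower on day 7 than on day 4 (log2 fold change -1.03, SE 0.31, edgeR adjusted p = 0.10) and missed the threshold there. The remaining gene of the 3 rose by 0.57 on day 8 relative to day 7 (SE 0.12, edgeR adjusted p = 0.022), a call lost without animal 39095, 39098 or 39102, with 35.1 to 71.3 CPM on day 8 and 26.6 to 58.8 CPM on day 7. It was 0.50 lower on day 7 than on day 4 (log2 fold change -0.50, SE 0.15, edgeR adjusted p = 0.11), which missed the threshold.

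**Figure D4:**
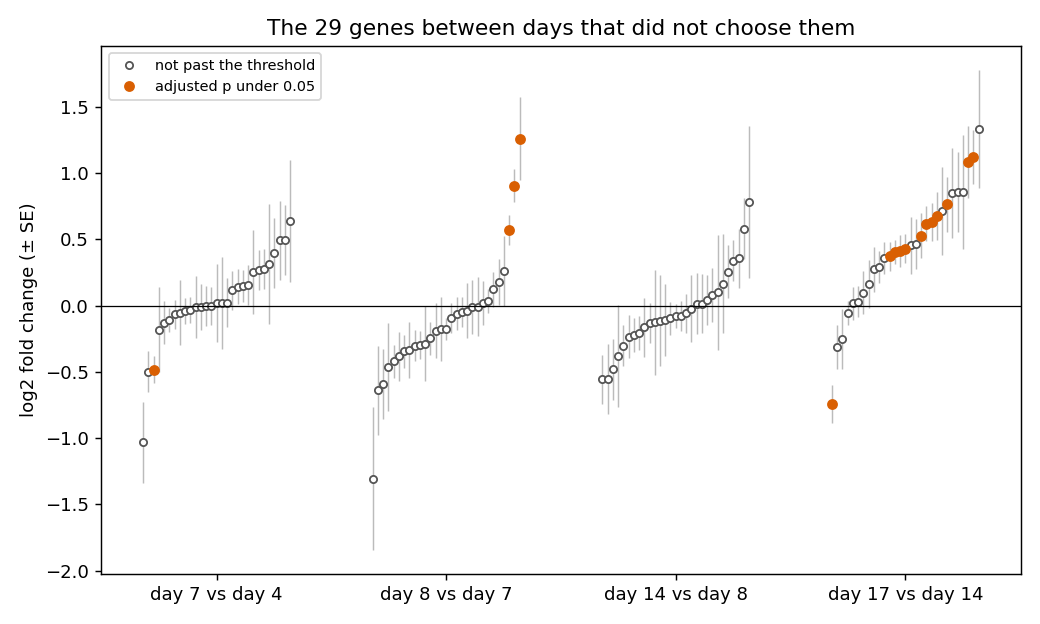
Log2 fold changes (vertical axis, ± SE) of the 29 genes in 4 comparisons between days outside the rule (horizontal axis, later day against earlier day), sorted within each comparison; filled points had an adjusted p under 0.05 by edgeR. On day 17 relative to day 14, 11 genes rose and 1 fell, on day 8 relative to day 7, 3 rose, on day 7 relative to day 4, 1 fell, and on day 14 relative to day 8 none was called.

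Few members were called between the other days of the low phase. On day 7 relative to day 4, 0 of the 29 genes rose (2.19% of genes tested) and 1 fell (0.885%; 3.08% in either direction), with 3 at an unadjusted p under 0.05 (19.2% of genes tested) and 3 called down by DESeq2 (4.05%). The median log2 fold change of the 29 genes was 0.02. No member was called without any 1 of animals 39090, 39097, 39098, 39100 and 39104 (0.797% to 2.14% of genes tested). Without 39102, 2 members fell (1.69% of genes tested). On day 14 relative to day 8, 0 of 29 genes rose (1.66% of genes tested) and 0 fell (1.16%; 2.82% in either direction) by edgeR, with 2 at an unadjusted p under 0.05 (21% of genes tested) and 1 called down by DESeq2 (5.11%). The median log2 fold change there was -0.08, against -0.02 for all genes tested. A higher mean on day 14 was found in 11 of 29 genes, and the share of kept genes was not counted. These counts do not show that levels were equal, since fitted log2 fold changes of single members ran from -0.56 to 0.78.

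The rule averaged females and males, and the comparisons of the sexes use the same day 0, 3 and 10 libraries that chose the members, so they are given as a description and support nothing. The change on day 3 from day 0 differed between females and males in 0 of the 29 genes by edgeR's test of the sex-by-day term (0% of genes tested), with 2 at an unadjusted p under 0.05 (4.67% of genes tested) and 0 by DESeq2. The median of that difference, female minus male, was 0.17 on the log2 scale over the 29 genes, as the set averaged -0.29 in females and -0.43 in males. For the change on day 10 from day 0 the count was also 0 (0% of genes tested), with 2 at an unadjusted p under 0.05 (3.21% of genes tested), 0 by DESeq2 and a median difference of 0.03. Levels summed over the 10 days of each animal differed between females and males in 0 of the 29 genes by edgeR (0.0368% of genes tested were higher in females, 0.0947% lower and 0.132% either way), with 4 at an unadjusted p under 0.05 (8.7% of genes tested) and 1 called by DESeq2, lower in females (0.552% of genes tested). The precision of these comparisons is limited by 4 animals of each sex.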

How the data were processed

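The authors deposited raw gene counts of all 80 libraries in 2 tables, the second listing 35432 genes. For the aligner, the counter, the genome build and the use of strand, the entry is: not given in the sources used here. Thus reads of near-identical, overlapping or antisense genes may be shared. Per the labels' protocols, RNA came from the RNAdvance Blood kit and libraries from KAPA HyperPrep reagents. The first table was used, and the second for 1 alternative. The members, lists and tests were chosen with earlier results of these data known. The 13 gene lists could not be used without names.

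edgeR 4.0.16 in R 4.3.3 (glmQLFit, glmQLFTest; TMM factors and filterByExpr grouped by day over 80 libraries, 16054 genes, 41.6%) was fitted to the 16 libraries of each pair of days with animal as a block. SEs were derived from the fold change and its F statistic. Sex was tested as a sex-by-day term, and on counts summed per animal with its own filter. Animal numbers in the labels give the pairing. Deviations from day means correlated at a median r of 0.44 within animals. Between animals it was -0.06, a value that the subtraction of day means makes negative and that is no independent contrast. DESeq2 1.42.0 was an alternative. Only the edgeR models of day 7 relative to day 4 and of the sex-by-day term on day 3 were run on simulated counts. Those counts held no differences between animals, and the outcome is not reported here. DESeq2, the other pairs of days and the sums per animal were not simulated. Printed identifiers were the 2 members with the lowest larger value of days 3 and 10 and the 2 called members with the largest rise on day 8 relative to day 7.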

Additional observations from a re-analysis of the deposited data

Results flagged for a closer look

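Of 49 groups of 8 animals examined (9 daily medians of the set and the daily CPM of the 4 printed identifiers), 10 held 1 animal whose distance to its neighbour exceeded Dixon's 95% critical share of the group's range. In independent groups of normally distributed values, chance alone flags about 1 group in 20. Here the CPM were not on a log scale and the same 8 animals recur on each day. The 10 flags thus cannot be set against that rate, and 7 of them are 1 gene in 1 animal. On day 4 the median change of the 29 genes was -0.929 in male 39102, and the next animal had -0.432. ENSMFAG00000002654 was far higher in female 39097 than in the other animals on 7 days, with 100 CPM (day 0), 84.7 CPM (day 1), 125 CPM (day 3), 143 CPM (day 4), 80.9 CPM (day 7), 116 CPM (day 8) and 137 CPM (day 10). ENSMFAG00000038603 reached 38.3 CPM in female 39098 on day 14, where the next animal had 16 CPM. ENSMFAG00000003955 reached 22.2 CPM in male 39104 on day 0, where the next animal had 10.5 CPM.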

How the results depend on the processing

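With a minimum mean of 1 CPM the rule gave 55 genes, of which 25 were among the 29, and the count lay between 31 and 43 with each animal left out. Of the 29, 15 stayed without centring (39 genes), 15 with a minimum of 10 CPM (23 genes) and 20 with TMM-scaled CPM (20 genes). Without subtraction of the library median, the median change of the set on day 8 was -0.669, and leaving out 1 animal gave -0.457 to -0.321. On day 7 relative to day 4, library totals as scaling gave 0 members (1.92% of genes tested) and DESeq2 gave 3 (9.51%). Omission of libraries over 40 M counts gave 0 (1.81%), and omission of single animals gave 0 to 2 (0.797% to 7.03%). On day 8 relative to day 7, library totals gave 9 (29.4% of genes tested), DESeq2 5 (28.3%) and omission of libraries over 40 M counts 7 (18.3%). The shared tag alone gave 1 (0.897%), and omission of single animals gave 1 to 4 (0.897% to 17.1%). On day 14 relative to day 8, DESeq2 gave 1 (11.5% of genes tested). On day 17 relative to day 14, library totals gave 22 (37% of genes tested) and the shared tag alone 1 (3 animals, 6.24%). Omission of single animals gave 0 to 13 (0% to 22.5%). DESeq2 called 1 member for the sex difference in level (2.05% of genes tested). Without animal as a replicate block, the count was 0 on day 7 relative to day 4 (1.27% of genes tested). It was 1 on day 8 relative to day 7 (4.36%) and 6 on day 17 relative to day 14 (11.8%). The causes of these differences were not tested. Where animals were left out, the number of animals and the choice of animals changed together. Members of low abundance rest on few reads, the lowest value being 2 counts.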
